A study of Cyprinodon variegatus with 4 samples.

Results

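Larvae of the sheepshead minnow exposed to polyester microfibres at 100 mg/L were set against larvae given the surfactant alone, gene by gene, and each difference was then read against a second library without fibres. The species, Cyprinodon variegatus, is an estuarine killifish kept for toxicity tests, and PET (polyethylene terephthalate) is the polyester of textile fibres. Whole larvae gave 4 RNA libraries, 1 per group: PET at 100 mg/L, PET at 10 mg/L, a surfactant control that received Tween 80 at 0.001%, and an untreated control. All were labelled 72 h after fertilization, with an exposure of 10 days. The labels do not say whether the fibre suspensions contained Tween 80, nor how many larvae went into a library. The 2 libraries compared here are the PET 100 mg/L library and the surfactant control, of 4 in the series, and the untreated control and the PET 10 mg/L library are given beside them.

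Expression was deposited as FPKM (a count of fragments divided by contig length and library size). The table held 257521 contigs, and a protein description stood beside 24404 of them. FPKM was summed over the contigs sharing a description, which gave 9609 sums, and the 2686 sums whose average across libraries reached 10 FPKM were compared. A sum can pool near-identical paralogues and separate fragments of 1 transcript, and the descriptions name the best-matching protein, not always from a fish. Libraries were scaled by the median ratio of these sums, and all levels below are scaled FPKM. A gene was called higher or lower from 1.5-fold upward, that is, a log2 ratio of at least 0.58 in size, computed with 0.5 FPKM added to each level. The untreated control was said to agree where the PET 100 mg/L library was also at least 1.5-fold from it in the same direction, to fall short where the direction was the same but smaller, and to go the other way where the sign was opposite. Both ratios have the PET 100 mg/L library in common, so the untreated control is a second comparator and not a replicate. With 1 library per group there is no replicate error, and every value compares libraries.

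A larva meets suspended fibres at its skin, gills and gut, and the responses usually followed in such exposures lie in immune proteins of blood and mucus, in enzymes that detoxify foreign compounds and in energy metabolism. Complement is a cascade of plasma proteins, made largely by the liver, in which cleavage of C3 marks surfaces for removal. Mitochondria carry a few respiratory chain subunits on their own DNA, while the other subunits come from the nucleus. RNA of a whole larva mixes all tissues, so fewer cells of a type and less RNA per cell cannot be told apart in any value given here.

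Between the PET 100 mg/L library and the surfactant control, 25 of the 2686 sums (0.931%) were called higher and 29 (1.08%) lower, 54 in all (2.01%). Under the scale as deposited, without the median-ratio scaling, the split was 33 higher and 23 lower. Counts of called members in the lists below are to be read beside the shares of 0.931%, 1.08% and 2.01%. The untreated control agreed for 10 of the 25 higher genes, which is 0.372% of all sums, fell short for 13 and went the other way for 2. Among the 29 lower genes it agreed for 16, which is 0.596% of all sums, fell short for 11 and went the other way for 2. The surfactant control lay under the untreated control for 19 of the 25 higher genes and above it for 23 of the 29 lower genes. Of all 2686 sums it lay under for 1377. The calls were picked on the surfactant control's own value, so these counts are a description and not a test. The PET 100 mg/L library set against the untreated control gave 32 sums higher (1.19%) and 29 lower (1.08%). At 2-fold over the surfactant control, 6 sums (0.223%) were higher and 10 (0.372%) lower. Taken over all sums, the log2 ratio of the PET 100 mg/L library to the surfactant control had a median of 0.00, and 90.5% of sums lay within 1.25-fold. The surfactant control set against the untreated control gave 38 calls: 92.7% of sums lay within 1.25-fold, 18 (0.67%) were called higher and 20 (0.745%) lower, and at 2-fold 3 (0.112%) were higher and 3 (0.112%) lower. Contigs without any description were called more often: of 5054, 6.11% were higher and 4.47% lower than in the surfactant control. Against both libraries without fibres 2.85% and 2.45% passed in those directions. These are single contigs and not sums over a description, so the shares rest on different units.

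**Figure D1:**
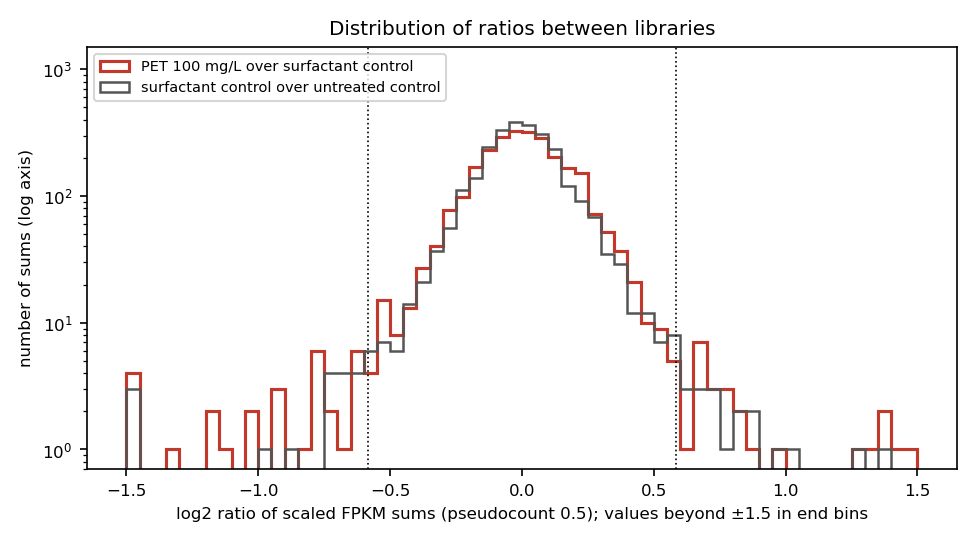
Number of gene sums (log axis) by log2 ratio of scaled FPKM, for PET 100 mg/L over surfactant control (red) and surfactant control over untreated control (grey), with dotted lines at 1.5-fold. Both distributions centre near 0, and 54 sums in the red and 38 in the grey distribution lie at or beyond the dotted lines.

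Called genes were of lower expression than the whole set: their median level over the 4 libraries was 18.5 FPKM, against 23.4 FPKM for all 2686 sums. Of the 54, 30 had a mean under 20 FPKM and 16 were held by 1 contig. A contig listed at 0 in at least 1 library occurred in 55.6% of called sums and in 41.0% of all sums. Relative sequencing depth was inferred from the most frequent ratio between libraries among contigs of low FPKM. By this estimate the PET 100 mg/L library had about 102% of the depth of the surfactant control, so the libraries under comparison were close. Both were shallower than the untreated control, at an estimated 77.9% and 77.1% of its depth. The most frequent step held 3078 of 31401 contigs for the first estimate, and 1248 of 30537 and 1097 of 29551 for the other estimates. The label of whole larvae was met by transcripts of muscle, skin, eye, liver and pancreas in every library. Summed skeletal muscle markers (4 of 6 matched) came to 10071 FPKM in the PET 100 mg/L library, 11890 in the surfactant control and 12451 in the untreated control. Summed hepatocyte markers (4 of 6 matched, none at 0) came to 206 FPKM in the PET 100 mg/L library, 176 in the surfactant control and 141 in the untreated control. Most of each sum was fibrinogen gamma (FGG), at 180, 159 and 126 FPKM in the same order of libraries. The pancreatic carboxypeptidase gene CPB1 was listed at 0 in the PET 100 mg/L library, with 0.57 FPKM in the surfactant control and 0.45 in the untreated control.

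**Figure D2:**
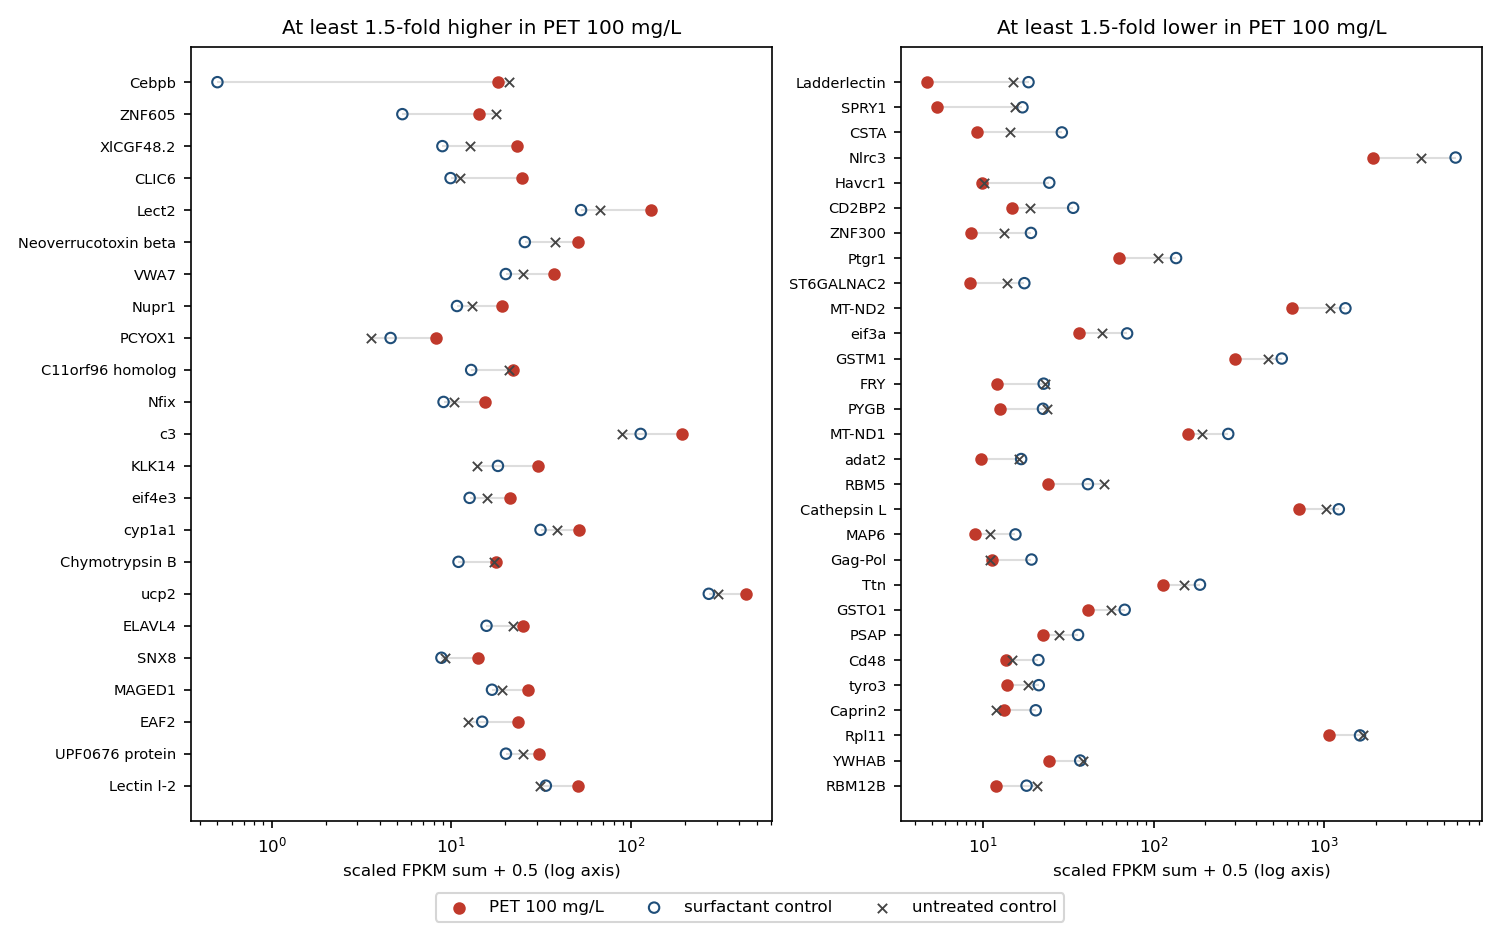
Scaled FPKM plus 0.5 (log axis) of 23 of the 25 sums called higher and the 29 called lower in the PET 100 mg/L library (red points), with the surfactant control (open circles) and the untreated control (crosses). Crosses near the open circles mark genes whose level in the PET 100 mg/L library stood apart from both controls, and crosses near the red points mark genes for which the surfactant control stood apart.

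The complement and acute phase list had the most genes called higher. The lists were chosen with earlier results of these data known, so this rank is a description and not a test. All 7 kept members of the complement and acute phase list were above 0 in log2 ratio against the surfactant control, with a median of 0.42, and 3 of the 7 were called higher, where 0.931% of all sums were. Against the untreated control their median was 0.64. The members described are C3 and LECT2 among those called and 4 that were not called. LECT2 is a chemotaxin and not a complement protein.

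Complement C3, the central protein of the cascade, was 192 FPKM in the PET 100 mg/L library, 112 in the surfactant control and 88.4 in the untreated control, and 148 in the PET 10 mg/L library. The log2 ratios were 0.77 to the surfactant control and 1.12 to the untreated control, so the ratio to the untreated control was the larger one. Of the 4 C3 contigs averaging 1 FPKM or more, 3 exceeded the surfactant control, and the most abundant of them carried most of the sum, at 162 FPKM in the PET 100 mg/L library and 84.0 in the surfactant control. LECT2 (leukocyte cell-derived chemotaxin-2), a liver-secreted protein that attracts neutrophils in mammals, reached 129 FPKM in the PET 100 mg/L library, against 52.2 in the surfactant control and 66.4 in the untreated control. Its level at 10 mg/L was 143 FPKM. Its log2 ratio was 1.30 to the surfactant control and 0.95 to the untreated control, and the untreated control agreed.

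The other 4 kept complement genes did not reach 1.5-fold against the surfactant control. Complement factor I (CFI), the protease that cuts C3b, was 27.3 FPKM in the PET 100 mg/L library, 20.8 in the surfactant control and 17.7 in the untreated control. Factor B (CFB), the protease of the alternative pathway, was 27.9, 23.5 and 17.7 FPKM in the same order of libraries. Both were past 1.5-fold against the untreated control alone, with log2 ratios of 0.61 and 0.64. C8A, a chain of the membrane attack complex, had log2 ratios of 0.42 and 0.53, and the mannose-binding protein MBL2 had 0.26 and 0.49. C-reactive protein (CRP), an acute phase protein, missed the minimum level, with 9.31 FPKM in the PET 100 mg/L library, 8.02 in the surfactant control and 7.64 in the untreated control. The list median between the surfactant control and the untreated control was also above 0, at 0.24. Summed hepatocyte markers, mostly FGG, were also highest in the PET 100 mg/L library. At 10 mg/L they came to 176 FPKM, the level of the surfactant control, with a list median of 0.32 there. The liver fatty acid-binding protein FABP10A was not among the markers. It was 1438 FPKM in the PET 100 mg/L library, 1626 in the surfactant control and 1241 in the untreated control. Other plasma proteins are given below. The part of liver RNA in these values was not tested.

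Plasma proteins outside complement had smaller ratios. Of 10 kept clotting and plasma proteins none was called, 9 were above 0 against the surfactant control and the median was 0.17. Against the untreated control the median was 0.41. All 10 were also higher in the surfactant control than in the untreated control, with log2 ratios between 0.14 and 0.39. Transferrin (tf1), the iron carrier of blood, was 1054 FPKM in the PET 100 mg/L library, 875 in the surfactant control and 796 in the untreated control. Alpha-1-antitrypsin under its own description was the one member below 0 against the surfactant control. It was 80.3 FPKM in the PET 100 mg/L library, 96.1 in the surfactant control and 73.4 in the untreated control. The far more abundant alpha-1-antitrypsin homolog was 1615.9, 1378.6 and 1090.5 FPKM in the same order, with log2 ratios of 0.23 and 0.57.

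Soluble lectins, carbohydrate-binding proteins of fish mucus and blood, held 1 gene called in each direction among 16, beside 0.931% higher and 1.08% lower of all sums. Lactose-binding lectin l-2 was higher and the untreated control agreed: it had 50.1 FPKM in the PET 100 mg/L library, 33.1 in the surfactant control and 30.7 in the untreated control, a log2 ratio of 0.59 that lies just past the threshold. Ladderlectin, a lectin of trout plasma that binds bacteria, was the gene furthest down of all 54: 4.23 FPKM in the PET 100 mg/L library, 18.0 in the surfactant control and 14.6 in the untreated control. The PET 10 mg/L library had 8.82 FPKM of it, and without the surfactant control the mean of ladderlectin was under the minimum of 10 FPKM. The log2 ratios were -1.97 and -1.67, so the untreated control agreed, and 1 contig carried nearly all of the sum. Across the 16 kept lectins and mucus proteins 14 were above 0 against the surfactant control, with a median of 0.19.

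Kallikrein-14 (KLK14), a secreted serine protease, was higher with agreement, at 30.0 FPKM in the PET 100 mg/L library, 17.7 in the surfactant control and 13.4 in the untreated control. The description neoverrucotoxin subunit beta, a stonefish toxin whose relatives occur widely in fish genomes, stood at 50.2 FPKM in the PET 100 mg/L library, 25.1 in the surfactant control and 37.1 in the untreated control, which fell short at 0.43. VWA7, a protein with a von Willebrand factor A domain, was 36.6 FPKM in the PET 100 mg/L library against 19.6 in the surfactant control, and the untreated control at 24.5 fell just short with a log2 ratio of 0.57.

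NLRC3, a member of the NOD-like receptor family that is expanded in fish, had the largest difference in FPKM of all genes called. Its sum was 1920 FPKM in the PET 100 mg/L library, 5865 in the surfactant control and 3660 in the untreated control, with log2 ratios of -1.61 and -0.93. At 10 mg/L it was 6237 FPKM, the highest of the 4 libraries. A single contig of the 58 under this description held the difference: it was 1040 FPKM in the PET 100 mg/L library, 4946 in the surfactant control and 2756 in the untreated control. The other 57 contigs summed to 880 FPKM in the PET 100 mg/L library, 919 in the surfactant control and 904 in the untreated control, a log2 ratio of -0.06 to the surfactant control. The call therefore rests on a single contig.

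Further immune and lysosomal descriptions were lower, and for cystatin-A the untreated control agreed. Cystatin-A (CSTA), an inhibitor of cysteine proteases, was 8.79 FPKM in the PET 100 mg/L library, 28.5 in the surfactant control and 14.0 in the untreated control, and the untreated control agreed at a log2 ratio of -0.64. Cathepsin L, a cysteine protease of lysosomes and the gut, was 708 FPKM in the PET 100 mg/L library, 1213 in the surfactant control and 1016 in the untreated control, which fell short at -0.52. Prosaposin (PSAP), the precursor of lysosomal lipid-degrading cofactors, was 22.0 FPKM in the PET 100 mg/L library against 35.6 in the surfactant control and 27.5 in the untreated control, which also fell short. HAVCR1, a receptor for phosphatidylserine on dying cells, shows a surfactant control that stood alone: 9.38 FPKM in the PET 100 mg/L library, 24.0 in the surfactant control and 9.68 in the untreated control. CD48, an adhesion molecule of leukocytes, and TYRO3, a receptor kinase that takes part in clearing dying cells, had log2 ratios of -0.62 and -0.61 to the surfactant control and fell short at -0.11 and -0.40 to the untreated control. Over the TYRO3 contigs above 0 in every library the ratio was -0.05, so its call rests on contigs listed at 0 in a library.

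Detoxification enzymes were called in both directions. CYP1A1, the cytochrome P450 induced through the aryl hydrocarbon receptor, was 50.5 FPKM in the PET 100 mg/L library, 30.8 in the surfactant control and 38.2 in the untreated control. With log2 ratios of 0.70 and 0.40 the untreated control fell short. The PET 10 mg/L library had 53.2 FPKM of CYP1A1, so both fibre libraries lay above both libraries without fibres. CYP1B1, its relative under the same receptor, was not called, with log2 ratios of 0.34 and 0.35.

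On the lower side were 2 glutathione S-transferases and a reductase. Glutathione S-transferase Mu 1 (GSTM1), which couples glutathione to electrophiles, was 299 FPKM in the PET 100 mg/L library, 562 in the surfactant control and 466 in the untreated control. The log2 ratios were -0.91 and -0.64, the untreated control agreed, and the PET 10 mg/L library had 337 FPKM. Glutathione S-transferase omega-1 (GSTO1) was 41.0 FPKM in the PET 100 mg/L library, 67.1 in the surfactant control and 55.6 in the untreated control, which fell short at -0.44. Prostaglandin reductase 1 (PTGR1), which reduces prostaglandins and reactive aldehydes, was 61.8 FPKM in the PET 100 mg/L library, 135 in the surfactant control and 105 in the untreated control, with agreement at -0.76. For all 3 genes the surfactant control was the highest library and the PET 10 mg/L library lay under both controls. The most abundant PTGR1 contig held most of its difference. The next was 18.5 FPKM in the PET 100 mg/L library, 20.7 in the surfactant control and 21.1 in the untreated control.

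Other kept glutathione S-transferases were not called. GSTA4, the most abundant conjugation gene of the list, was 742 FPKM in the PET 100 mg/L library, 693 in the surfactant control and 633 in the untreated control, with log2 ratios of 0.10 and 0.23. Over the 17 kept cytochrome P450s and conjugation enzymes 1 was called higher and 2 lower, where 0.931% and 1.08% of all sums were, 9 were above 0 and the median was 0.10. Antioxidant and redox enzymes had no call among 7, and their log2 ratios to the surfactant control lay between -0.26 for thioredoxin reductase 3 (TXNRD3) and 0.22 for peroxiredoxin-5 (PRDX5).

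Mitochondrial genes gave both the most abundant higher gene and a group of lower ones. Uncoupling protein 2 (UCP2), an inner membrane carrier, was 432 FPKM in the PET 100 mg/L library, 270 in the surfactant control and 302 in the untreated control, with 459 in the PET 10 mg/L library. Its log2 ratio was 0.68 to the surfactant control, and the untreated control fell short at 0.52. Of the 9 UCP2 contigs averaging 1 FPKM or more, 8 were above the surfactant control.

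Among the genes of mitochondrial DNA 4 of 7 matched sums were kept, all 4 were below 0 against the surfactant control, and the median was -0.51. MT-ND2, a subunit of complex I, was lower with agreement: 645 FPKM in the PET 100 mg/L library, 1327 in the surfactant control and 1077 in the untreated control, log2 ratios of -1.04 and -0.74. At 10 mg/L MT-ND2 was 1093 FPKM. MT-ND1, another complex I subunit, was 158 FPKM in the PET 100 mg/L library, 273 in the surfactant control and 191 in the untreated control, which fell short at -0.27. Its level at 10 mg/L was 301 FPKM, above both controls. The far more abundant cytochrome c oxidase subunits were not called: MT-CO1 was 14132 FPKM in the PET 100 mg/L library, 15037 in the surfactant control and 13465 in the untreated control, and MT-CO3 was 7100, 8376 and 7229 FPKM in the same order of libraries. Against the untreated control the median of the 4 genes was -0.15, and 1 of them was above 0.

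Nuclear-encoded respiratory chain genes had no call among 48, beside 2.01% of all sums called. Their median was -0.09 against the surfactant control and -0.04 against the untreated control. Of these, 41 were below 0 against the surfactant control, or 33 on the scale as deposited. ATP5G3, a ring subunit of the ATP synthase, had the largest ratio of them, with 600.4 FPKM in the PET 100 mg/L library, 860.0 in the surfactant control and 928 in the untreated control.

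Amino acid breakdown, a liver function, had no called gene. All 7 kept members were above 0 against the surfactant control, and all 7 against the untreated control. The median was 0.36 against the surfactant control and 0.30 against the untreated control, where 1359 of all 2686 sums were above 0 against the surfactant control. Tyrosine aminotransferase (TAT), the first enzyme of tyrosine breakdown, was 122 FPKM in the PET 100 mg/L library, 83.7 in the surfactant control and 95.6 in the untreated control. The next enzyme after TAT, 4-hydroxyphenylpyruvate dioxygenase (HPD), was 136 FPKM in the PET 100 mg/L library, 97.8 in the surfactant control and 95.7 in the untreated control. The log2 ratios to the surfactant control were 0.54 for TAT and 0.47 for HPD, and glutamine synthetase (GLUL), which makes glutamine, had the smallest of the list at 0.03. The surfactant control and the untreated control differed by a list median of -0.06.

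**Figure D3:**
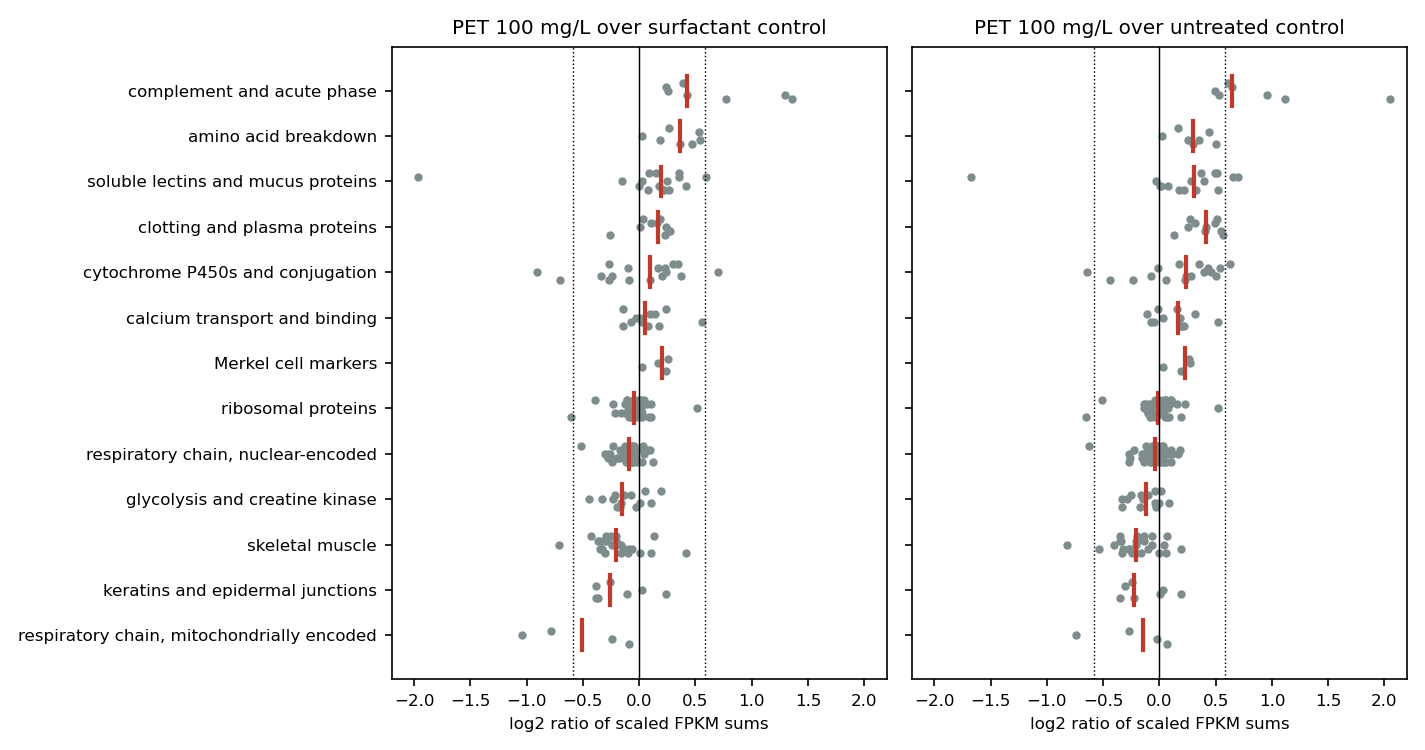
Log2 ratio of scaled FPKM sums for kept members (grey points) of 13 gene lists, PET 100 mg/L over surfactant control at left and over untreated control at right, with list medians in red and dotted lines at 1.5-fold. Complement and amino acid breakdown lie to the right of 0 in both panels, skeletal muscle medians are -0.21 in both, and the mitochondrially encoded median is -0.51 at left and -0.15 at right.

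Of 27 kept skeletal muscle sums 23 were below 0 against the surfactant control, with a median of -0.21 (-0.15 on the scale as deposited), and the median against the untreated control was also -0.21. Titin (TTN), the giant spring protein of the sarcomere, was the 1 called, beside 1.08% of all sums called lower. It was 113 FPKM in the PET 100 mg/L library, 186 in the surfactant control and 150 in the untreated control, which fell short at -0.40. Its 34 contigs are fragments of a very long transcript, and 8 of the 11 averaging 1 FPKM or more were lower; the most abundant of them, at -0.53, was short of a call. Tropomyosin alpha-1 (TPM1), a thin filament protein, was 5024 FPKM in the PET 100 mg/L library, 6760 in the surfactant control and 6392 in the untreated control. The most abundant member, a fast myosin heavy chain, was 16705, 15563 and 19738 FPKM in the same order of libraries, and so lay above the surfactant control and below the untreated control.

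Of 14 glycolysis and creatine kinase genes 10 were below 0, with a median of -0.15 and no call. Mitochondrial creatine kinase (CKMT2) was 547 FPKM in the PET 100 mg/L library, 745 in the surfactant control and 687 in the untreated control. Glycogen phosphorylase of the brain form (PYGB), which releases glucose units from glycogen, was called lower with agreement, at 12.1 FPKM in the PET 100 mg/L library, 22.0 in the surfactant control and 23.1 in the untreated control. Both PYGB contigs were past 1.5-fold, but the main contig only just, at -0.60, and the other was listed at 0 in the PET 100 mg/L library.

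Keratins and epidermal junction genes had no call among 7, 5 of them below 0, with medians of -0.26 against the surfactant control and -0.22 against the untreated control. Keratin 13 (KRT13), an abundant skin keratin, was 6010 FPKM in the PET 100 mg/L library, 7757 in the surfactant control and 7022 in the untreated control. Plakophilin-3 (PKP3), a desmosome protein, was 83.2 FPKM in the PET 100 mg/L library, 109 in the surfactant control and 106 in the untreated control. The keratins KRT8 and KRT18 were the members above 0, with log2 ratios of 0.24 and 0.02 to the surfactant control.

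The series title points to Merkel cells, touch receptor cells of the skin, and to the corpuscles of Stannius, fish glands whose hormone, stanniocalcin, lowers blood calcium. Stanniocalcin missed the minimum level and was not called: it was 11.1 FPKM in the PET 100 mg/L library, 3.40 in the surfactant control and 9.09 in the untreated control, with 5.33 in the PET 10 mg/L library. The PET 100 mg/L and untreated libraries were thus close, and the surfactant control lay under both. Of 7 matched calcium-regulating genes 1 was kept, the vitamin D-degrading enzyme CYP24A1, with 25.8 FPKM in the PET 100 mg/L library, 18.1 in the surfactant control and 23.9 in the untreated control. Protein S100-G, a calcium-binding protein of absorbing epithelia, was just under the threshold, at 670 FPKM in the PET 100 mg/L library, 456 in the surfactant control and 467 in the untreated control, with log2 ratios of 0.56 and 0.52.

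Merkel cell markers had no call, and 4 of 15 matched were kept. Their log2 ratios to the surfactant control lay between 0.02 for KRT18 and 0.26 for chromogranin-A (CHGA). KRT8, a keratin of Merkel cells and other simple epithelia, was 2135 FPKM in the PET 100 mg/L library, 1809 in the surfactant control and 1874 in the untreated control. Of the defining markers, the touch channel PIEZO2 had 3.31 FPKM in the PET 100 mg/L library, 2.60 in the surfactant control and 4.27 in the untreated control, and the transcription factor ATOH1 had 1.14, 0.21 and 0.89 FPKM. SOX2 had no matching description. The other matched markers under the minimum level went both ways. RAB3C, DDC, SYT1 and ISL1 were above the surfactant control, and GFI1, POU4F3, PENK, slc17a6a and slc17a6b were below it. GFI1 was 2.78 FPKM in the PET 100 mg/L library and 3.91 in the surfactant control, and POU4F3 was 1.41 and 2.35.

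CEBPB, a transcription factor of the acute phase response and of fat and liver cells, was listed at 0 in the surfactant control, so no fold is given. It was 17.6 FPKM in the PET 100 mg/L library and 20.4 in the untreated control, and 14.8 at 10 mg/L; the untreated control went the other way. The same held for the zinc finger gene ZNF605, with 13.7 FPKM in the PET 100 mg/L library, 4.84 in the surfactant control and 17.1 in the untreated control. For both genes the low value belonged to the surfactant control alone.

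The gastrula zinc finger protein XlCGF48.2 was 22.6 FPKM in the PET 100 mg/L library, 8.42 in the surfactant control and 12.1 in the untreated control. Its log2 ratios were 1.37 and 0.87. The difference from the untreated control lay mostly on a single contig, at 16.2, 4.57 and 5.26 FPKM in the same order. Another contig, at 3.12, 0 and 4.47 FPKM, was not above the untreated control. EAF2, a partner of the elongation factor ELL, was 23.0 FPKM in the PET 100 mg/L library, 14.3 in the surfactant control and 11.9 in the untreated control. NUPR1, a small stress-induced chromatin protein, fell just short: 18.8 FPKM in the PET 100 mg/L library, 10.2 in the surfactant control and 12.6 in the untreated control, log2 ratios of 0.84 and 0.56. NFIX, a nuclear factor I transcription factor, did so too, at 0.77 and 0.57. It reached the minimum mean of 10 FPKM only through the PET 100 mg/L library. Also higher with the untreated control short of 1.5-fold were the cap-binding protein EIF4E3 at 0.74 and 0.42, the neuronal RNA-binding protein ELAVL4 at 0.68 and 0.20, and the adaptor MAGED1 at 0.67 and 0.48. Over the ELAVL4 contigs above 0 in every library the ratio to the surfactant control was 0.52, short of a call.

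On the lower side, SPRY1, an inhibitor of receptor tyrosine kinase signalling, had 4.89 FPKM in the PET 100 mg/L library, 16.5 in the surfactant control and 14.9 in the untreated control. Its log2 ratios were -1.66 and -1.52, but the surfactant control's reads lay on 1 contig and the untreated control's on the other, each listed at 0 in the other library. RBM5, a splicing regulator, was 23.5 FPKM in the PET 100 mg/L library, 40.7 in the surfactant control and 50.7 in the untreated control, and agreed at -1.09. RBM12B, another RNA-binding protein, was 11.4, 17.5 and 20.1 FPKM in the same order and agreed at -0.80. Its less abundant contig was higher, at 3.91 FPKM in the PET 100 mg/L library and 3.28 in the surfactant control. ADAT2, which edits adenosine in transfer RNAs, and ZNF300, a zinc finger protein, also agreed, with log2 ratios of -0.78 and -0.74 and of -1.17 and -0.65. Of 3 ADAT2 contigs, 2 were lower than in the surfactant control. For ZNF300 only 1 contig was past 1.5-fold against the untreated control, at 0.68 FPKM in the PET 100 mg/L library and 4.86 in the untreated control.

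Ribosomal protein L11 (RPL11) was 1064 FPKM in the PET 100 mg/L library, 1616 in the surfactant control and 1671 in the untreated control, and the untreated control agreed at -0.65. It was the 1 called of 45 ribosomal proteins, beside 1.08% of all sums called lower. The median of the 45 was -0.05, or 0.01 on the scale as deposited. The initiation factor subunit EIF3A was 36.1 FPKM in the PET 100 mg/L library, 69.4 in the surfactant control and 49.5 in the untreated control, which fell short at -0.45. CD2BP2, a splicing-associated protein, had log2 ratios of -1.19 and -0.34 and fell short, while the RNA-binding Caprin-2 went the other way, at -0.61 and 0.16.

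The remaining genes have varied roles. CLIC6 is a chloride intracellular channel family member. It was 24.1 FPKM in the PET 100 mg/L library, 9.40 in the surfactant control and 10.7 in the untreated control. At 10 mg/L it was 9.96 FPKM, so it was high in the PET 100 mg/L library alone. The mean over the other libraries was under 10 FPKM, so CLIC6 was kept only through the library in which it was high. Prenylcysteine oxidase (PCYOX1) degrades prenylated cysteine. It was 7.70 FPKM in the PET 100 mg/L library, 4.09 in the surfactant control and 3.08 in the untreated control, and agreed. Its highest level, 26.2 FPKM, was at 10 mg/L, and only through that library did it reach the minimum mean of 10 FPKM. The endosomal sorting nexin SNX8 agreed at 0.67 and 0.60. Of its 13.5 FPKM in the PET 100 mg/L library, 4.20 lay on 1 contig that was listed at 0 in the other libraries. Without contigs at 0 its log2 ratio was 0.18. SNX8 too reached the minimum mean only through the PET 100 mg/L library.

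The untreated control fell short for 3 further higher descriptions: chymotrypsin B, a pancreatic protease, at 0.70 and 0.04, the uncharacterized C11orf96 homolog at 0.78 and 0.08, and the UPF0676 protein, of unknown function, at 0.60 and 0.28. For chymotrypsin B the levels were 17.3 FPKM in the PET 100 mg/L library, 10.5 in the surfactant control and 16.7 in the untreated control, while the far more abundant chymotrypsinogen 2 (CTRB1) had 709, 837 and 1008 FPKM in the same order. Digestive enzymes as a list had 1 call in 14, beside 2.01% of all sums, and a median of 0.09.

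Lower with agreement were the sialyltransferase ST6GALNAC2, which caps mucin-type sugars, at -1.05 and -0.72, the signalling adaptor YWHAB of the 14-3-3 family at -0.60 and -0.65, and the scaffold protein FRY at -0.90 and -0.92. FRY rested on 1 contig at 0 in the PET 100 mg/L library, and over its contigs above 0 in all libraries the log2 ratio was 0.05. The microtubule protein MAP6 fell short at -0.78 and -0.29, and the retroelement description Gag-Pol went the other way at -0.77 and 0.03. Without contigs listed at 0, Gag-Pol also turned, to 0.09 against the surfactant control. The members nearest the threshold were lectin l-2 at 0.59 and UPF0676 at 0.60, RBM12B and YWHAB at -0.60. Just outside stood nucleoside diphosphate kinase A1 at 0.58, DPYSL2 and S100-G at 0.56, and NINJ1, VTCN1 and BTN2A2 at -0.55.

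**Figure D4:**
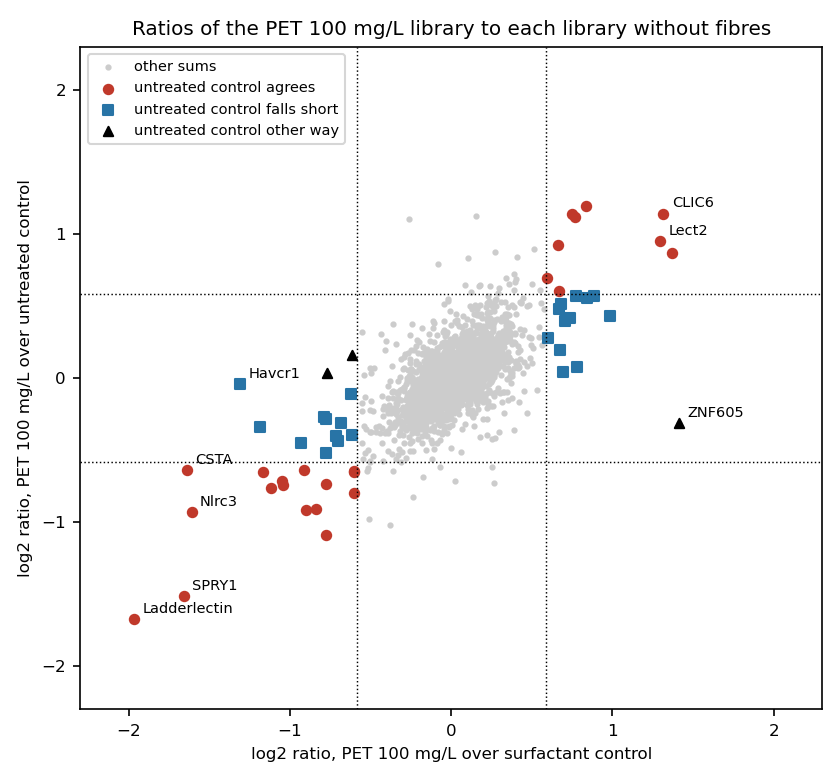
Log2 ratio of the PET 100 mg/L library to the surfactant control (x axis) and to the untreated control (y axis) for sums above 0 in the surfactant control; dotted lines mark 1.5-fold, and the PET 100 mg/L library is part of both axes. Red circles (25 drawn of 26) passed 1.5-fold on both axes, blue squares (23 drawn of 24) fell short on the y axis, and black triangles are genes with the opposite sign there, CEBPB not being drawn.

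Read against the untreated control, the higher genes that agreed included C3, LECT2, lectin l-2, KLK14, CLIC6, XlCGF48.2, EAF2, SNX8 and PCYOX1. Of these, CLIC6 and SNX8 reached the minimum mean only through the PET 100 mg/L library, and PCYOX1 only through the PET 10 mg/L library. The lower genes that agreed were ladderlectin, CSTA, NLRC3, GSTM1, PTGR1, MT-ND2, RPL11, PYGB, SPRY1, RBM5, RBM12B, ADAT2, ZNF300, ST6GALNAC2, YWHAB and FRY. These were not equally supported. NLRC3 and FRY each rested on a single contig, as did the agreement of ZNF300. For SPRY1 the reads of the surfactant control and of the untreated control lay on different contigs. Ladderlectin reached the minimum mean only through the surfactant control. The comparison of 10 mg/L with the surfactant control shares that control, and gave 28 sums higher (1.04%) and 23 lower (0.856%). Set directly against the PET 10 mg/L library, the PET 100 mg/L library had 15 sums higher (0.558%) and 30 lower (1.12%). Among the genes with agreement, CLIC6 was higher and NLRC3 lower at 100 mg/L than at 10 mg/L, while LECT2 and RPL11 differed little between the 2 fibre libraries.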

How the data were processed

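Per the file headers, the deposited table holds FPKM for 1 column per library; bcl2fastq 2.20.0.422, Bowtie and RSEM are named in the submitters' processing notes. Assembly, annotation and genome build are not given in the sources used here. Gene names come from the table's descriptions, no genome was used, and 22 of the 54 called symbols occur in the RefSeq table of the C_variegatus-1.0 assembly. FPKM holds no fragment counts, so counting error is unknown and no interval was computed.

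FPKM was summed per description, sums with a mean of at least 10 were kept, libraries were divided by the median ratio to the geometric mean over libraries (factors 1.03 for PET 100 mg/L, 0.990 for the surfactant control), and log2 ratios used a pseudocount of 0.5, which understates ratios of low genes. Calls needed 1.5-fold. No test exists with 1 library per group. Calculations (Python 3.11.15, pandas 2.3.3, numpy 2.4.6, matplotlib 3.10.9) were checked on simulated data.

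Named genes were the 12 highest and 12 lowest by ratio to the surfactant control, up to 12 each way with agreement (10 higher genes had it), the 6 largest FPKM differences each way, and up to 4 members with the largest ratio plus the most abundant of each list described; other called genes and values beside them were added to describe the other calls. The comparison, the 37 gene lists and the genes were chosen with earlier results of these data known. A few genes that the rule names are not reported here. Alternatives were the pseudocount, the scaling, the minimum level, the fold, and the contigs that enter a sum.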

Additional observations from a re-analysis of the deposited data

Results flagged for a closer look

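Contigs without a protein description lay outside the comparison. Of 5054 such contigs averaging 10 FPKM or more, 309 (6.11%) were higher by 1.5-fold or more and 226 (4.47%) lower in the PET 100 mg/L library than in the surfactant control, and 144 (2.85%) were higher and 124 (2.45%) lower than in both libraries without fibres. A single contig was TR24432|c0_g1_i1, with 599 FPKM in the PET 100 mg/L library, 134 in the surfactant control and 126 in the untreated control, and 306 at 10 mg/L. Another was TR87846|c1_g1_i1, with 53.3 FPKM in the PET 100 mg/L library, 3.47 in the surfactant control and 5.57 in the untreated control. On the lower side TR64156|c0_g1_i1 was listed at 0 in the PET 100 mg/L library and stood at 23.3 FPKM in the surfactant control and 13.9 in the untreated control. Single contigs are not sums over a description, so these shares and those of the described genes rest on different units.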

How the results depend on the processing

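Counts are given as higher and lower against the surfactant control, then higher and lower against both libraries without fibres; the values reported were 25, 29, 10 and 16. The values reported came from 2686 kept sums, and the total changes with the minimum level. A minimum mean of 1 FPKM kept 6457 sums and gave 394, 303, 185 and 123. A minimum of 50 FPKM kept 693 sums and gave 5, 9, 2 and 4. A 2-fold threshold gave 6, 10, 2 and 2. Leaving out descriptions held by 1 contig, an alternative chosen after seeing the data, gave 15, 23, 4 and 15. The other alternatives kept each count within 1.5 times: pseudocounts of 0.1 and 1, no scaling (33, 23, 15 and 11), upper-quartile scaling, the most abundant contig alone, and contigs above 0 in all libraries. Of the 54 called sums 48 were called without scaling, 54 with upper-quartile scaling, and 38 with the most abundant contig alone, where 14 missed the minimum level. FRY reversed to a log2 ratio of 0.048 when its sum was limited to contigs above 0 in all libraries, because the contig that carried its difference drops out. Scored on the scale reported and with no minimum level, an alternative chosen after seeing the data, contigs above 0 in all libraries kept 47 of the 54 calls, ended 3 (ELAVL4, SNX8, TYRO3), reversed 2 (FRY and Gag-Pol) and left 2 (CEBPB, SPRY1) with no contig. NLRC3 without its most abundant contig, chosen after seeing the data, was -0.06. No paired analysis was possible because each group has 1 library, and for the same reason no replicate could be left out.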

Other observations

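Immediate-early and stress regulators are genes transcribed quickly after stimulation. In the PET 100 mg/L library they lay lower against the untreated control than against the surfactant control. Against the untreated control 12 of 13 kept members were below 0, with a median of -0.24, beside 1342 of all 2686 sums. Against the surfactant control 6 of 13 were below 0, with a median of 0.07. Both ratios share the PET 100 mg/L library, so the contrast is one between the controls. GADD45B, a stress-induced regulator of growth arrest, was 46.0 FPKM in the PET 100 mg/L library, 66.8 in the surfactant control and 66.3 in the untreated control. KLF2, a zinc finger factor of blood vessels, was 70.9, 101 and 106 FPKM in the same order of libraries. Neither reached 1.5-fold.

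Tubulin and cilia genes had no call among 19, with 14 above 0 against the surfactant control, a median of 0.18, and a median of 0.08 against the untreated control. TUBB4B, a tubulin of cilia and neurons, was 54.3 FPKM in the PET 100 mg/L library, 38.0 in the surfactant control and 46.8 in the untreated control. KIF3B, a motor subunit of ciliary transport, ran against the list at 11.5, 16.7 and 16.5 FPKM in the same order. Growth hormone (GH) was 13.3 FPKM in the PET 100 mg/L library, 9.33 in the surfactant control and 9.19 in the untreated control. It reached the minimum mean of 10 FPKM only through the PET 100 mg/L library. Collagen alpha-2(I) (COL1A2), of bone and skin matrix, was 104 FPKM in the PET 100 mg/L library, 149 in the surfactant control and 162 in the untreated control. Adult-type hemoglobin alpha-1 (HBA1) was 272 FPKM in the PET 100 mg/L library, 394 in the surfactant control and 298 in the untreated control. The far more abundant embryonic hemoglobin alpha was higher, at 2449, 2168 and 2065 FPKM in the same order. GH, COL1A2 and HBA1 were not called, and the medians of their lists against the surfactant control were 0.19, -0.01 and -0.04.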
